A study of Mus musculus with 6 samples.

Results

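The genes described here are members of the cellular response to low oxygen and of glycolysis. They were taken by symbol: Ndrg1 and Aldoa, and any present of 15 further genes, which were Egln1, Egln3, P4ha1, P4ha2, Hk1, Hk2, Pfkp, Pfkl, Pdk1, Ldha, Pgk1, Bnip3, Ero1l, Ankrd37 and Car9. Of these 17 genes, 11 were among the 7101 genes of the deposited table, and Egln1, Hk1, Pfkl, Pdk1, Ldha and Pgk1 were not analysed here. RNA-seq values came from 3 lnc956 knockout and 3 wild-type libraries, all labelled as embryo of strain C57BL/6N at E12.5, a mid-gestation stage. lnc956 is a long noncoding RNA, and its own level was not analysed here, which leaves the labels as the source of each genotype. Neither the design of the knockout allele nor whether replicates were separate embryos or litters is given in the sources used here, so p-values measure the spread between these libraries, which may be technical.

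When oxygen is plentiful, prolyl hydroxylases of the Egln family mark the alpha subunits of hypoxia-inducible factor (HIF) for destruction. When oxygen is scarce these subunits persist, pair with Arnt and bind a short core sequence, the hypoxia response element, near genes of glucose uptake, glycolysis, pH control, mitochondrial turnover and collagen maturation. Several of the HIF target genes, Egln3 among them, in turn restrain the response. The placenta and the maternal decidua (the lining of the pregnant uterus) are known sites of HIF activity and of strong glycolysis, and many of the enzymes exist as related genes used by different tissues, such as muscle.

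The table seems to have been chosen for differences between these genotypes, and how this was done was not stated. It runs in 2 alphabetical blocks: knockout exceeded wild type in mean for 3643 of the 3644 genes in the first and was below it for each of the 3457 in the second. All 11 genes described here lie in the first block. Values are FPKM (fragments per kilobase of transcript, scaled by mapped fragments), which are per length and so allow levels of different genes to be set side by side. The libraries also differed in tissue markers. Of 14 placenta and decidua markers in the table (of 16 listed), the summed level was 20530 to 42459 FPKM in knockout libraries and 7.31 to 12.53 FPKM in wild type, with Gcm1 listed at 0 in 2 knockout libraries and 1 wild-type library. The 8 uterine natural killer cell markers (of 10) summed to 7531 to 18903 FPKM in knockout and 0.93 to 3.05 FPKM in wild type, with Gzme listed at 0 in 1 wild-type library. The 9 decidual stroma markers (of 10) summed to 7917 to 9532 FPKM in knockout and 68.8 to 80.9 FPKM in wild type. Prl8a2 is on this list and on that of placenta and decidua; without it the 8 other stroma markers summed to 1341 to 2923 FPKM in knockout and 67.3 to 79.5 FPKM in wild type. In the other direction, the 7 neuron markers (of 10) summed to 5.77 to 21.2 FPKM in knockout and 707 to 755 FPKM in wild type, and the 10 muscle markers (of 12) to 15.4 to 28.9 FPKM in knockout and 629 to 876 FPKM in wild type. The nerve and muscle markers of an embryo were thus nearly missing from the libraries labelled as knockout embryo, with Nefl and Elavl3 listed at 0 in 1 of these libraries each. The part of these differences in the results below was not tested, and in bulk samples fewer cells of a type and less RNA per cell cannot be told apart.

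The core of the hypoxia response element is ACGTG or GCGTG, and it was looked for on both strands in windows of 300 bases around annotated starts (250 before and 50 after; RefSeq, GRCm38.p6). Windows were found for 10 of the 11 genes, all but Ndrg1. ACGTG stood in a window of 9 of these 10 genes, every one except Pfkp, against 21.8% of the 27025 genes with a window. In the table, it stood in 29.5% of the 2401 genes called higher in knockout that had a window and in 24.8% of the 2494 called lower. GCGTG stood in 6 of the 10 genes, against 35.2% of all genes with a window, 52.9% of those called higher and 53.2% of those called lower. These are matches of letters, given as a description. The genes were taken by symbol for the hypoxia response and glycolysis, so their share of cores is not a result about these libraries. The 31 bases around the match nearest to the start are shown for the 9 genes, to compare what surrounds the core. They read 5′ to 3′ on the strand of the gene, with the core in capitals, as ACGTG or, where it lies on the opposite strand, as CACGT.
Aldoa: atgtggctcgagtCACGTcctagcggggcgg
Egln3: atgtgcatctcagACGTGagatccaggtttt
P4ha1: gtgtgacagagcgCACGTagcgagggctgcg
P4ha2: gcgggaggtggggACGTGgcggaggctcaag
Hk2: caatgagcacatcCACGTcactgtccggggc
Bnip3: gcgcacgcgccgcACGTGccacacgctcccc
Ero1l: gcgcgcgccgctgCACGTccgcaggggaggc
Ankrd37: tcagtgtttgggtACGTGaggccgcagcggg
Car9: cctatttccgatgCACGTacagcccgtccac

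In GRCm38.p6 these stretches lie at chr7:126799363-126799393 (minus strand) for Aldoa, chr12:54204086-54204116 (minus) for Egln3, chr10:59323267-59323297 (plus) for P4ha1 and chr11:54100921-54100951 (plus) for P4ha2. Those of Hk2, Bnip3 and Ero1l lie at chr6:82774489-82774519, chr7:138909596-138909626 and chr14:45318618-45318648, all on the minus strand, the last under the current symbol Ero1a. Those of Ankrd37 and Car9 lie at chr8:45999839-45999869 (minus) and chr4:43506995-43507025 (plus). Counted from the annotated start, the first base of the core lay at -6 in Ankrd37, -16 in P4ha1, -18 in Car9, -52 in Hk2, -63 in Ero1l, -107 in Bnip3 and -229 in Egln3, and at 10 past the start in P4ha2. Aldoa has 3 annotated starts; 1 site lay within the windows of 2 of them, at -126 and -202, and the window of the third start held neither core.

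The whole windows of Bnip3, with 5 cores counted over both strands, and of Pfkp, the gene with GCGTG alone, are shown. They set a window with both cores beside 1 with GCGTG alone. All cores are in capitals, CACGC being GCGTG on the opposite strand. In Bnip3 the capitals CACGTG are ACGTG read on both strands, overlapping by 4 bases, so its 2 ACGTG cores are 1 site. The window of Bnip3 is chr7:138909457-138909756 and that of Pfkp chr13:6648722-6649021, both on the minus strand.
Bnip3: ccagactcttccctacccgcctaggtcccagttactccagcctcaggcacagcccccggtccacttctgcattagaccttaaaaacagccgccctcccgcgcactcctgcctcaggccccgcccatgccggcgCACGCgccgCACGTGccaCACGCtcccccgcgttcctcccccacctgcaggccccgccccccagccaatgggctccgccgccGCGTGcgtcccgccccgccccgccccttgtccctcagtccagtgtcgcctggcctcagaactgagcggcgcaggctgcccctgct
Pfkp: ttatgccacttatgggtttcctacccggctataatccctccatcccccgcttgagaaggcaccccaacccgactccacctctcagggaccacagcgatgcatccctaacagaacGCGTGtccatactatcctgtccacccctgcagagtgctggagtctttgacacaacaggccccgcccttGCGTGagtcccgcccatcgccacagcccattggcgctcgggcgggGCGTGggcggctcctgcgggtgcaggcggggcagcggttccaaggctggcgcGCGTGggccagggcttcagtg

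**Figure D1:**
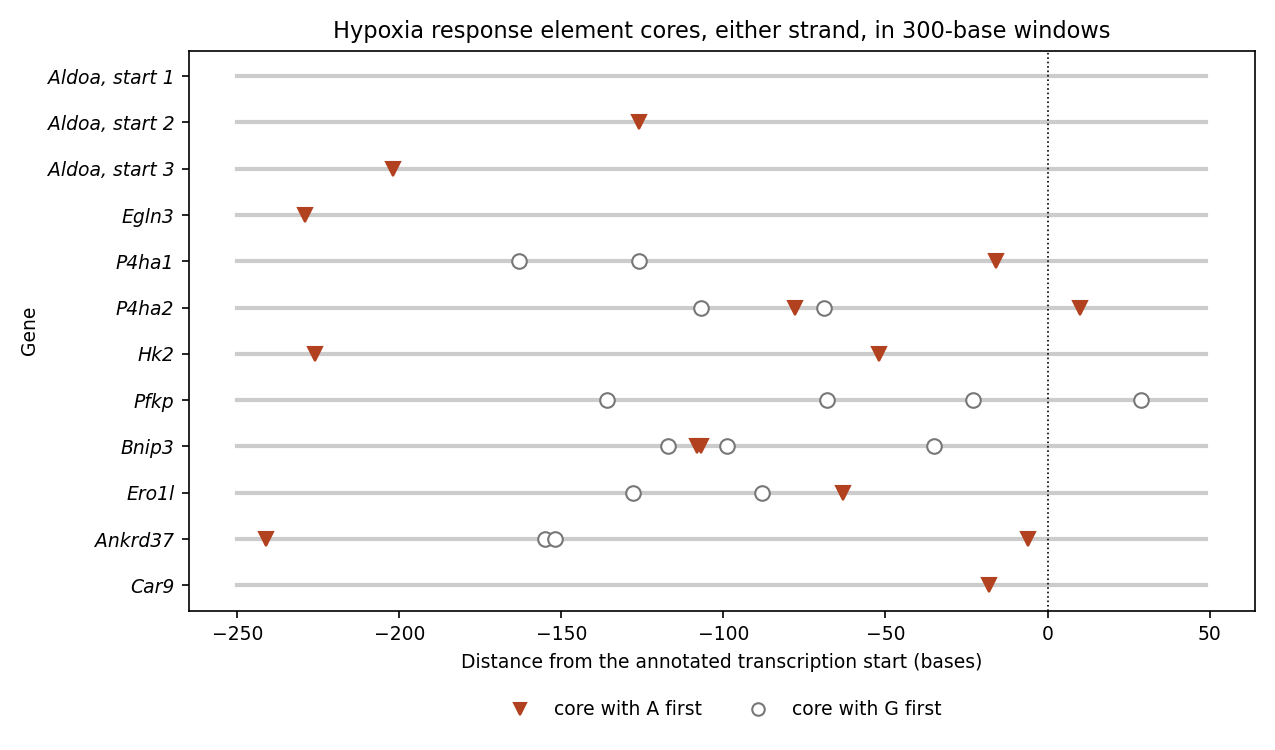
Positions of hypoxia response element cores, on either strand, along the windows of the 10 genes that had one (x axis, bases from the start, dotted at 0; y axis, gene and start). Filled triangles mark ACGTG and open circles GCGTG; every gene but Pfkp has a triangle, and Pfkp has 4 circles.

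All 10 genes that passed the filter on low values were higher in the knockout libraries, from 1.91-fold for P4ha1 to 30.8-fold for Ndrg1 in mean FPKM. The filter required 3 or more of the 6 libraries to reach 1 FPKM, and these 10 genes had at least 1 FPKM in all 6, so their expression in knockout did not bring them through it. Each passed limma (Benjamini-Hochberg adjusted p under 0.05 over the 6487 genes tested), and in each the 3 knockout values lay above the 3 wild-type values. Of all genes tested, 47.2% were called higher and 49.2% lower, and the knockout values of 47.1% of the genes in the table lay above, and of 48.5% below, all wild-type values. With 96.4% of all genes tested called in either direction, that a gene was called says little in this table. The median log2 change of the 10 genes was 2.68, against 0.38 for all genes tested and 1.39 for the genes called higher; 7 of the 10 lay above 1.39. Log2 changes are knockout minus wild type on the log2(FPKM + 1) scale, which understates the change of low genes. The median of all genes tested was 0.65 with trimmed-mean rescaling of the libraries and -0.04 with quantile normalization. Small changes are therefore also given relative to the median of 0.38 on the deposited scale. In a table that seems chosen for differences this median is not a level of unchanged genes. Distances from it are a description and do not correct the scale.

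**Figure D2:**
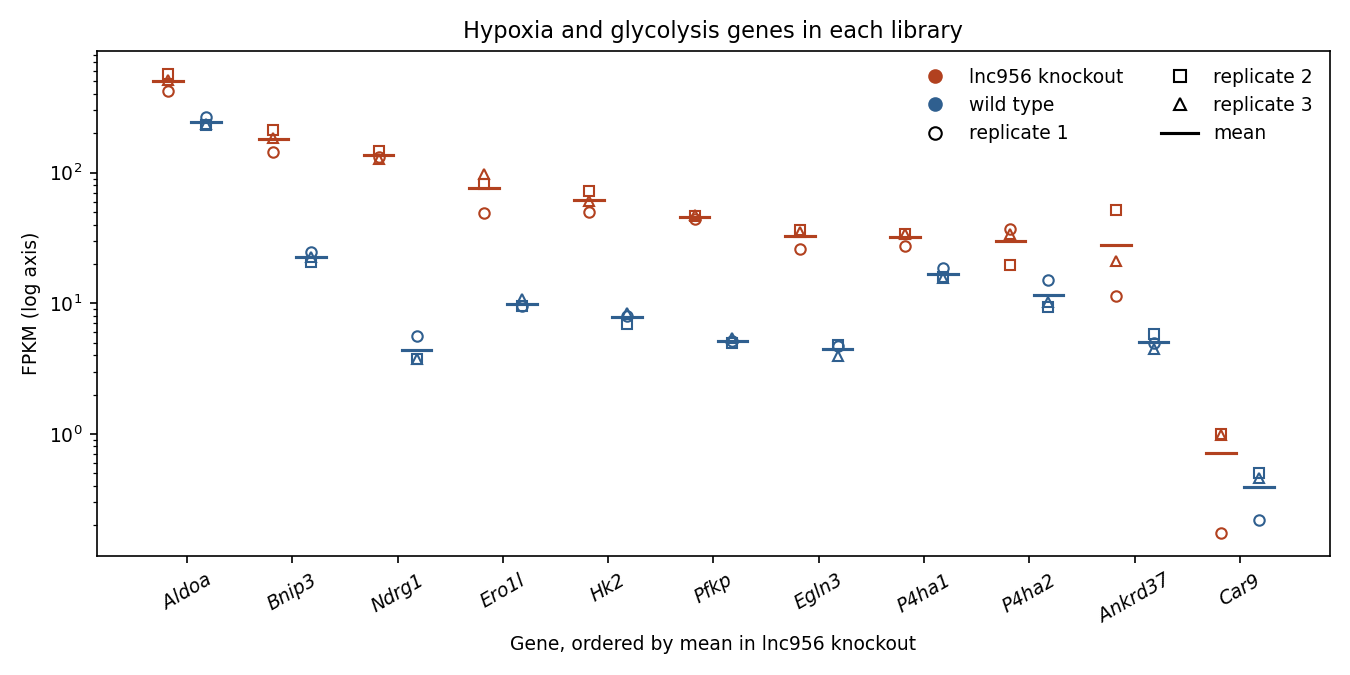
FPKM on a log axis (y) of the 11 genes (x, ordered by mean in knockout) in each library, with knockout left of wild type, symbols for replicates and bars for means. In every gene but Car9 the 3 knockout points lie above the 3 wild-type points, and Ndrg1 shows the widest gap, with means of 136 FPKM in knockout and 4.39 FPKM in wild type.

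Ndrg1 differed most. It encodes an alpha/beta hydrolase-fold protein that responds to hypoxia and cell stress and has been studied in human trophoblast as a protection against low oxygen. Ndrg1 was at 132, 147 and 127 FPKM in knockout replicates 1 to 3, against 5.66, 3.76 and 3.77 FPKM in wild-type replicates 1 to 3. The 3 knockout libraries differed by less than their distance to wild type, and none stood apart. The log2 change was 4.68 (SE 0.17, limma adjusted p = 7.18e-07, n = 3 each), for means of 136 ± 10.3 FPKM in knockout and 4.39 ± 1.09 FPKM in wild type (SD). In GENCODE M21 (GRCm38) Ndrg1 is a protein-coding gene on chromosome 15, 66929318 to 66969640, on the minus strand. Its relative Ndrg3, the other NDRG family gene in the table, fell (log2 change -1.41, SE 0.13, limma adjusted p = 2.79e-05), with 7.17, 7.18 and 6.78 FPKM in knockout and 21.8, 19.6 and 19.9 FPKM in wild type. The ratio of Ndrg1 to Ndrg3 was thus 18.5 to 20.5 in knockout libraries and 0.189 to 0.26 in wild type.

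Among the genes of oxygen sensing and HIF output, Egln3 and Ankrd37 were higher in knockout and Car9 was near the lower limit. Egln3, a HIF prolyl hydroxylase that is itself a HIF target, was at 26.2, 36.4 and 35.4 FPKM in knockout, against 4.67, 4.83 and 3.94 FPKM in wild type. Its log2 change was 2.61 (SE 0.17, limma adjusted p = 5.82e-06). Ankrd37, which encodes an ankyrin-repeat protein known as a HIF-1 target, was uneven, at 11.5, 52.0 and 20.9 FPKM in knockout, against 4.97, 5.81 and 4.49 FPKM in wild type. Replicate 2 held 4.54 times the level of replicate 1, yet even replicate 1 lay above all wild-type libraries. The log2 change was 2.01 (SE 0.48, limma adjusted p = 0.00452), 1.45 without knockout replicate 2 and 2.49 without knockout replicate 1. Car9, a membrane carbonic anhydrase that acidifies the cell surroundings and a widely used HIF marker, was at 0.174, 0.992 and 0.981 FPKM in knockout, against 0.218, 0.497 and 0.463 FPKM in wild type. The groups overlapped, since knockout replicate 1 was the lowest of all 6 libraries, and Car9 did not reach 1 FPKM in any library, so it was not tested.

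The 3 glycolytic enzyme genes rose by different amounts. Hk2, the hexokinase that traps glucose in the cell and sits on mitochondria, was at 49.7, 72.9 and 61.2 FPKM in knockout, against 8.03, 6.89 and 8.46 FPKM in wild type (log2 change 2.81, SE 0.18, limma adjusted p = 4.43e-06). Pfkp, the platelet-type phosphofructokinase of the committed step, was the most even, at 44.1, 47.0 and 47.3 FPKM in knockout, against 5.18, 4.92 and 5.42 FPKM in wild type. Its log2 change was 2.93 (SE 0.13, limma adjusted p = 9.86e-07). Aldoa, the aldolase that splits fructose 1,6-bisphosphate and is abundant in muscle and many other tissues, was at 420.5, 573 and 514 FPKM in knockout, against 267, 231 and 237 FPKM in wild type. The groups did not overlap, and the means were 502 ± 76.8 FPKM in knockout and 245 ± 19.5 FPKM in wild type (SD, n = 3 each). The log2 change of Aldoa was 1.02 (SE 0.16, limma adjusted p = 0.000458), or 0.64 above the median of all genes tested, and its direction turned with quantile normalization (-0.21, limma adjusted p = 0.148). The position of Aldoa is chromosome 7, 126795234 to 126800751, minus strand (GENCODE M21, GRCm38), where a second annotated gene carries the same symbol upstream, so how its reads were counted is uncertain.

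Bnip3 and Ero1l act in mitochondria and in the endoplasmic reticulum, and both rose. Bnip3, a receptor for the removal of mitochondria, was at 144, 212 and 185 FPKM in knockout, against 24.5, 20.8 and 22.7 FPKM in wild type (log2 change 2.92, SE 0.17, limma adjusted p = 3.39e-06). Its relative Bnip3l, which also marks mitochondria for removal, rose too, at 83.4, 104 and 89.4 FPKM in knockout and 42.7, 43.4 and 44.1 FPKM in wild type (log2 change 1.06, SE 0.13, limma adjusted p = 0.000143). Ero1l (now Ero1a), an oxidase that drives disulfide bond formation, was at 49.2, 81.5 and 97.1 FPKM in knockout, against 9.47, 9.53 and 10.9 FPKM in wild type. All 3 knockout values lay above the wild-type ones, with replicate 1 the lowest, and the log2 change was 2.76 (SE 0.25, limma adjusted p = 2.61e-05).

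The collagen prolyl 4-hydroxylase genes, whose products stabilise the collagen triple helix, rose with smaller log2 changes than most of the other genes. P4ha1 was at 27.6, 34.1 and 34.0 FPKM in knockout, against 18.8, 15.8 and 15.5 FPKM in wild type (log2 change 0.89, SE 0.15, limma adjusted p = 0.000753), 0.51 above the median of all genes tested. P4ha2 was at 37.3, 19.5 and 33.8 FPKM in knockout, against 15.0, 9.40 and 10.2 FPKM in wild type. Here knockout replicate 2 was the lowest of its group, the reverse of most other genes described, and the log2 change was 1.29 (SE 0.28, limma adjusted p = 0.00297), 0.91 above that median. The third alpha subunit gene, P4ha3, fell (log2 change -2.27, SE 0.28, limma adjusted p = 0.000129), with 0.258, 1.67 and 0.909 FPKM in knockout and 9.06, 8.35 and 6.69 FPKM in wild type. Its wild-type values brought it through the filter, since knockout replicates 1 and 3 were under 1 FPKM.

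**Figure D3:**
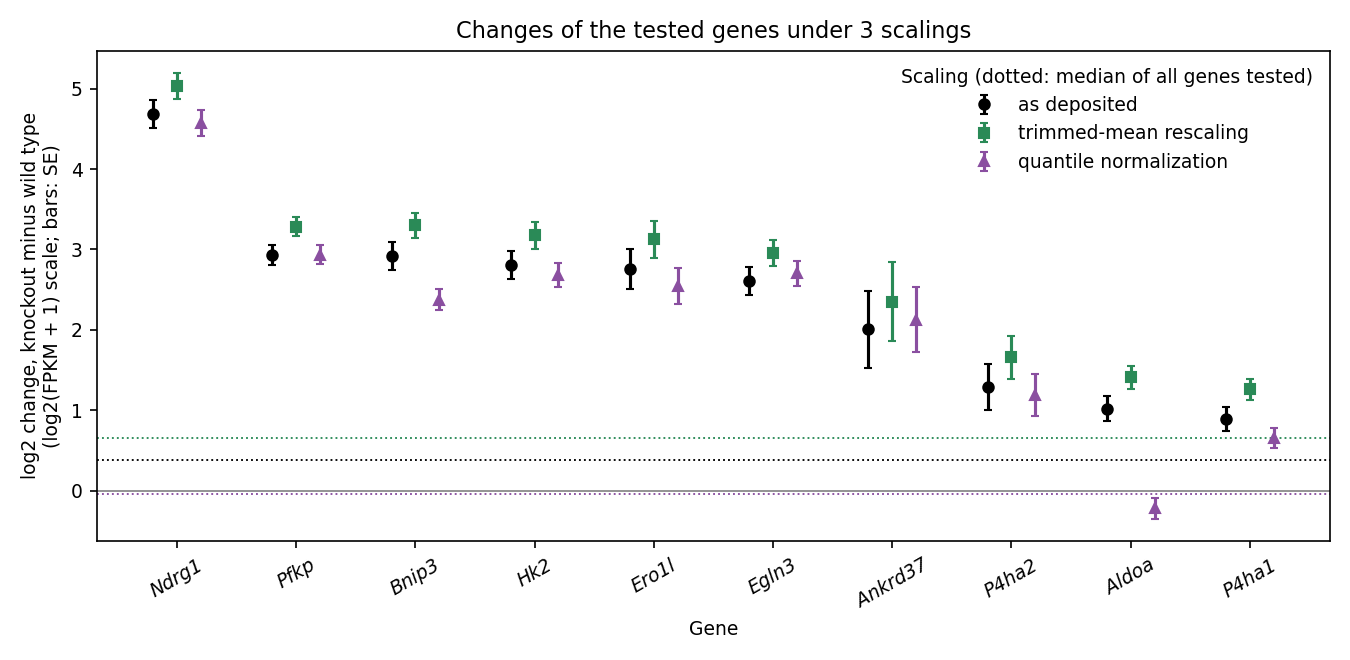
Log2 change with its SE (y) of the 10 tested genes (x) as deposited, with trimmed-mean rescaling and with quantile normalization; dotted lines give the median of all genes tested under each. Aldoa crosses 0 under quantile normalization (-0.21), and the other 9 stay above 0 under all 3.

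The order of the levels differed between the genotypes. In knockout libraries the order of mean FPKM was Aldoa, Bnip3, Ndrg1, Ero1l, Hk2, Pfkp, Egln3, P4ha1, P4ha2, Ankrd37 and Car9. In wild-type libraries it was Aldoa, Bnip3, P4ha1, P4ha2, Ero1l, Hk2, Pfkp, Ankrd37, Egln3, Ndrg1 and Car9. Ndrg1 thus had rank 3 of 11 in knockout and rank 10 in wild type. In knockout, neighbours with overlapping ranges were Bnip3 with Ndrg1, Ero1l with Hk2, Egln3 with P4ha1, P4ha1 with P4ha2, and P4ha2 with Ankrd37. In wild type they were P4ha2 with Ero1l, Pfkp with Ankrd37, Ankrd37 with Egln3, and Egln3 with Ndrg1.

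The knockout libraries shared a pattern among themselves. Of the 10 genes whose groups did not overlap, replicate 1 was the lowest knockout library for 8, the exceptions being Ndrg1 and P4ha2, and replicate 2 the highest for 7. Of the 3345 genes of the table with knockout above wild type without overlap, replicate 1 was the lowest for 43.6% and replicate 2 the highest for 52.3%. The decidual stroma and uterine natural killer markers varied in the same direction: replicate 1 was lowest for 8 of 9 and 7 of 8 of them, and replicate 2 highest for 6 of 9 and 8 of 8. Erythroid markers, which were lower in knockout, also had replicate 1 lowest for 7 of 9, but replicate 3 highest for 6. Of 35 other hypoxia targets, replicate 1 was lowest for 23 and replicate 2 highest for 18. For placenta and decidua markers, replicate 2 was the lowest for 7 of 14 and replicate 1 the highest for 7. The part of tissue composition in this pattern was not tested.

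In a ratio of related genes within a library, a factor common to that library cancels, apart from the pseudocount. Of 8 pairs with both genes in the table, 7 had knockout and wild-type ratios that did not overlap. In a table where nearly all genes are without overlap (47.1% with knockout above, 48.5% below) such a count says little, and the sizes are given as a description. The exact permutation test over 3 against 3 libraries cannot go below p = 0.1 (two-sided), and gave 0.1 for each of the 7 (0.114 adjusted over the 8 pairs). The pair that overlapped was P4ha2 over P4ha1 (log2 difference 0.40, exact permutation p = 0.4). Phosphofructokinase changed its leading gene among the 2 measured: Pfkp was 5.30 to 15.0 times Pfkm, the muscle-type gene, in knockout libraries and 0.175 to 0.195 times Pfkm in wild type. The log2 ratio averaged 2.91 ± 0.63 in knockout and -2.22 ± 0.08 in wild type (SD, n = 3 each). For collagen hydroxylase, P4ha1 over P4ha3 had a log2 ratio of 4.14 ± 0.40 in knockout and 0.97 ± 0.13 in wild type. Bnip3 over Bnip3l stood at 0.95 ± 0.14 in knockout and -0.91 ± 0.12 in wild type, and Hk2 over Hk3 at 4.75 ± 0.26 in knockout and 2.67 ± 0.20 in wild type. The glucose transporters Slc2a1 over Slc2a3 stood at 3.05 ± 0.15 in knockout and 1.86 ± 0.14 in wild type. Hk3 was under 2 FPKM in all libraries and P4ha3 in all knockout libraries, so both of their ratios rest on low values. With a pseudocount of 0.1 in place of 1 the difference between the genotypes was 1.35 instead of 2.08 for Hk2 over Hk3. For P4ha1 over P4ha3 the difference was 3.16, against 1.90 with a pseudocount of 5 and 4.15 with 0.1. A pseudocount of 5 also moved Pfkp over Pfkm from 5.13 to 3.98 and Hif1a over Epas1 from -4.29 to -3.52. Ndrg1 over Ndrg3 moved from 6.09 to 4.98 with 5 and to 6.46 with 0.1.

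**Figure D4:**
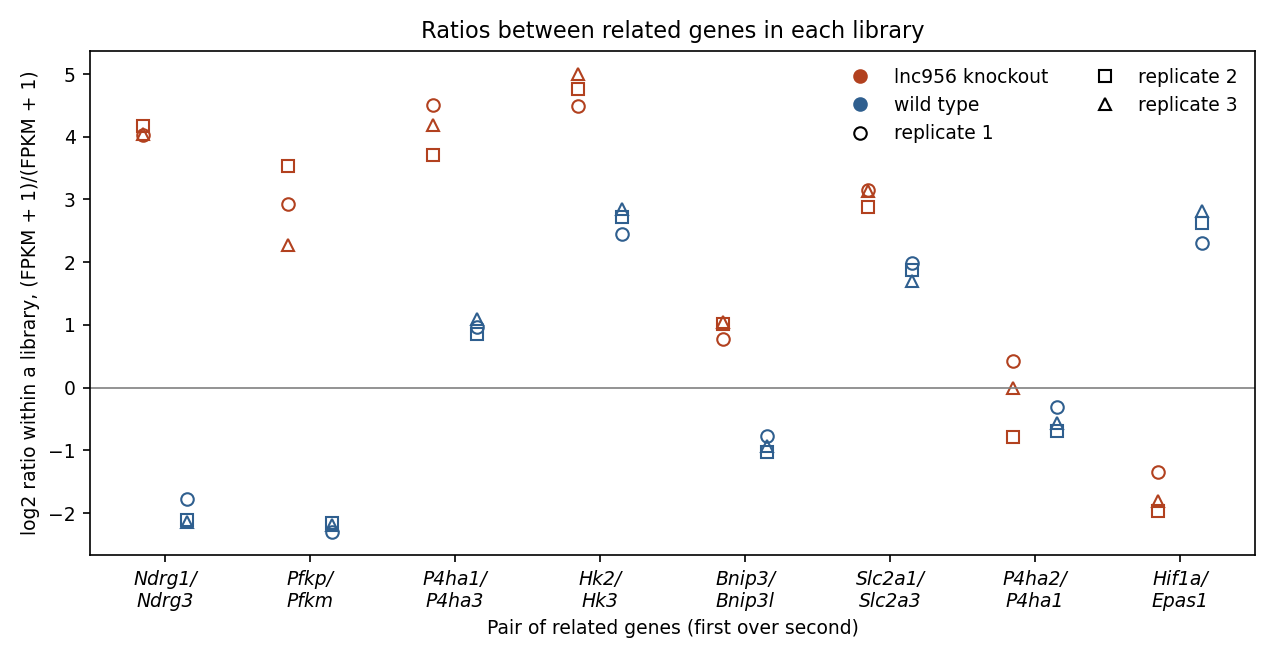
Log2 ratio of (FPKM + 1) values within each library (y) for 8 pairs of related genes (x), knockout left of wild type, symbols for replicates. Ndrg1/Ndrg3, Pfkp/Pfkm and Bnip3/Bnip3l change sign between the genotypes, Hif1a/Epas1 changes sign in the opposite direction, and P4ha2/P4ha1 overlaps.

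Of the 20 genes listed as HIF subunits and their regulators, 7 were in the table; 5 rose, Hif3a fell and Hsp90aa1 did not pass (log2 change 0.51, limma adjusted p = 0.176). Here and for the lists that follow, 47.2% of all genes tested were called higher and 49.2% lower. Hif3a passed the filter through its wild-type values alone. Epas1, which encodes HIF-2 alpha and is typical of endothelium and placenta, rose to 133, 145 and 145 FPKM in knockout, against 4.25, 3.63 and 3.56 FPKM in wild type (log2 change 4.89, SE 0.13, limma adjusted p = 3.68e-07). Hif1a, which encodes HIF-1 alpha, was at 51.7, 36.3 and 41.0 FPKM in knockout, against 24.9, 27.7 and 31.0 FPKM in wild type. Its log2 change of 0.60 (SE 0.17), 0.22 above the median of all genes tested, passed limma (adjusted p = 0.0112) but not with quantile normalization (0.19, adjusted p = 0.333). Of Epas1 and Hif1a, Epas1 was thus the higher one in knockout, with Hif1a at 0.25 to 0.388 times its level. In wild type Hif1a was the higher one, at 5.87 to 8.71 times Epas1. Cited2, which competes with HIF for its coactivators, was at 373, 207 and 278 FPKM in knockout, against 35.1, 31.9 and 32.8 FPKM in wild type (log2 change 3.03, limma adjusted p = 8.62e-06). Os9, a lectin of endoplasmic reticulum quality control, averaged 60.8 ± 19.1 FPKM in knockout and 24.3 ± 0.96 FPKM in wild type. Hif3a, a further alpha subunit gene whose products can antagonise HIF, averaged 0.59 ± 0.28 FPKM in knockout and 5.38 ± 0.62 FPKM in wild type (SD, n = 3 each). At 6.09, 5.01 and 5.03 FPKM in wild type, Hif3a lay above Epas1 in each of these libraries.

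Of 23 other glycolysis genes listed, 9 were in the table and 7 were tested: 5 fell, Pfkfb2 rose and Pfkfb1 did not pass (log2 change 0.38, limma adjusted p = 0.299). Of the 7, 2 were under 1 FPKM in some library of 1 genotype, so that the other genotype brought them through the filter. Among those that fell were genes used chiefly by muscle, and the muscle markers fell in the same libraries. Pgam2, the muscle phosphoglycerate mutase, was at 0.907, 1.05 and 0.791 FPKM in knockout, against 17.7, 13.4 and 13.2 FPKM in wild type (log2 change -3.03, limma adjusted p = 2.44e-06). Pfkm was at 4.94, 3.13 and 8.92 FPKM in knockout, against 29.6, 25.3 and 28.3 FPKM in wild type (log2 change -2.20, limma adjusted p = 0.000255), and Eno3, the muscle enolase, averaged 3.14 ± 0.75 FPKM in knockout and 15.0 ± 1.93 FPKM in wild type. Bpgm, a mutase of red cells named after its values were seen, also fell (log2 change -1.75, limma adjusted p = 0.000751). Erythroid markers, 9 of 10 in the table, summed to 2171 to 4811 FPKM in knockout and 27908 to 42467 FPKM in wild type, and the part of these tissues was not tested. Pfkfb2, which makes an activator of phosphofructokinase, averaged 8.65 ± 1.80 FPKM in knockout and 4.90 ± 0.44 FPKM in wild type (log2 change 0.70, or 0.32 above the median of all genes tested, limma adjusted p = 0.00698).

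Of 21 genes of glucose and lactate transport and pyruvate use, 10 were in the table and 9 were tested. Of these 5 rose and 4 fell, shares near those of all genes tested (47.2% and 49.2%), and 3 (Slc2a4, Pdp2 and Pdk4) passed the filter through 1 genotype. Slc2a1 (GLUT1), the HIF-inducible glucose transporter, was at 129, 218 and 264 FPKM in knockout, against 60.6, 49.4 and 47.3 FPKM in wild type (log2 change 1.88, SE 0.27, limma adjusted p = 0.000298). Slc2a4 (GLUT4), the insulin-responsive transporter of muscle and fat, was listed at 0.0193, 0 and 0.0748 FPKM in knockout, against 6.35, 5.57 and 5.19 FPKM in wild type. Slc2a3 (GLUT3) passed narrowly (log2 change 0.68, or 0.31 above the median of all genes tested, limma adjusted p = 0.0491), with knockout replicate 1 at 13.7 FPKM inside the wild-type range. Its call ended without knockout replicate 2 (limma adjusted p = 0.115), without knockout replicate 3 (limma adjusted p = 0.148) and without each wild-type replicate in turn (limma adjusted p = 0.094 to 0.12). Slc16a1, a lactate and pyruvate transporter, averaged 37.3 ± 16.0 FPKM in knockout and 11.8 ± 1.80 FPKM in wild type, and Mpc1, a subunit of the mitochondrial pyruvate carrier, 58.8 ± 6.76 FPKM in knockout and 21.7 ± 2.88 FPKM in wild type. The pyruvate dehydrogenase phosphatase genes Pdp1 and Pdp2 fell, with log2 changes of -1.27 and -1.08. Of the kinases that oppose them, Pdk3 fell (-1.39), and Pdk4 was at 1.41, 4.77 and 2.70 FPKM in knockout, against 0.434, 0.296 and 0.26 FPKM in wild type; both were named after their values were seen.

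**Figure D5:**
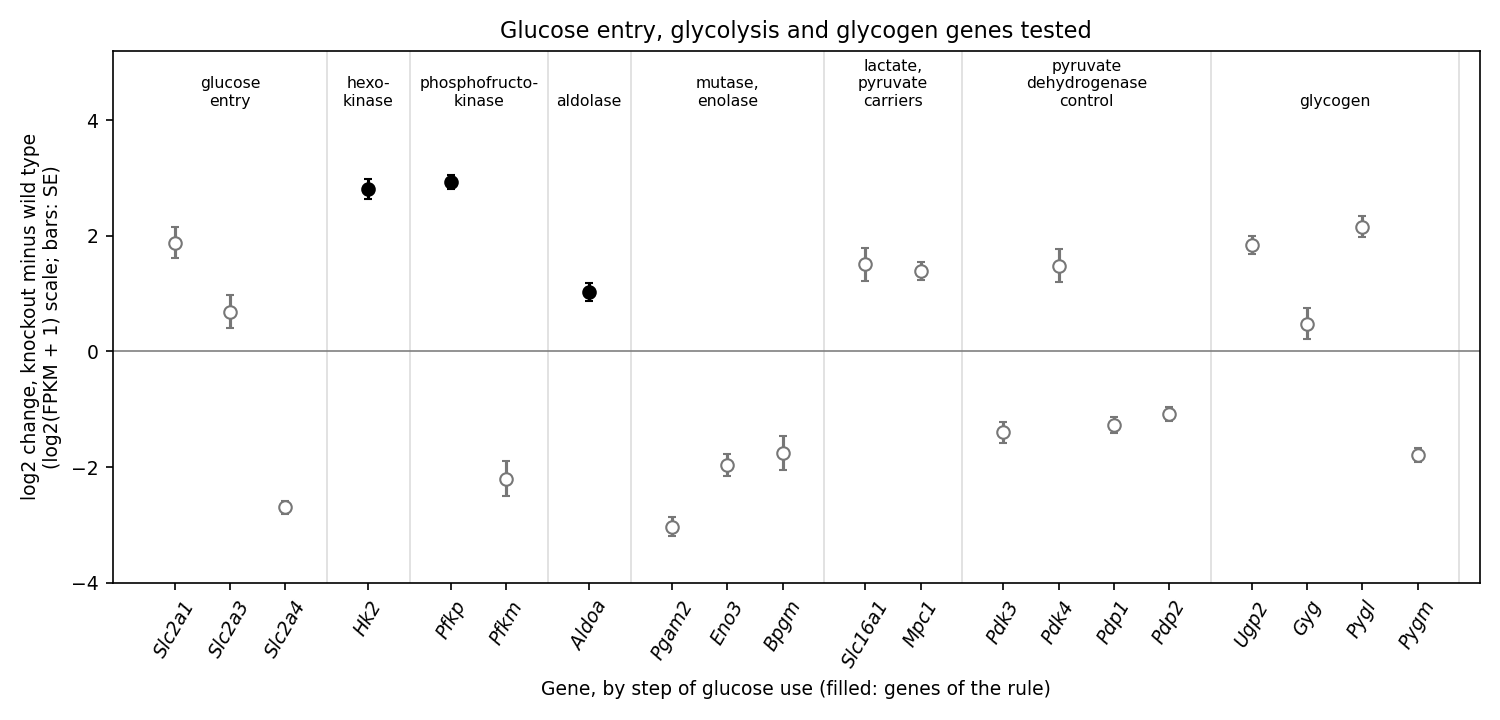
Log2 change with its SE (y) of tested genes of glucose entry, glycolysis, pyruvate control and glycogen (x, by step; filled points are Hk2, Pfkp and Aldoa). Related genes of 1 step lie on opposite sides of 0, as Pfkp (2.93) and Pfkm (-2.20) or Slc2a1 (1.88) and Slc2a4 (-2.70); Aldoa turned to -0.21 under quantile normalization.

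Of 52 other genes known as hypoxia targets, 35 were in the table, of which 26 rose, 8 fell and Igfbp1 did not pass (log2 change 0.02, limma adjusted p = 0.989). Of the 35, 9 were under 1 FPKM in some library of 1 genotype, Adm and Rcor2 among them, so the other genotype brought them through the filter. The median log2 change of the 35 was 1.07. Among those that rose with the smallest p-values were Adm, a vasodilator peptide, and Maff, a small Maf transcription factor. Adm was at 172, 280.4 and 195 FPKM in knockout, against 0.991, 1.20 and 1.33 FPKM in wild type (log2 change 6.61, SE 0.20, limma adjusted p = 5.02e-07). P4hb, which completes the collagen hydroxylase and was named after its values were seen, was at 640.2, 622 and 715 FPKM in knockout, against 254, 199.9 and 201 FPKM in wild type. Its log2 change was 1.60, and its call ended with quantile normalization (0.30, limma adjusted p = 0.0836). Of the genes that fell, Rcor2, a neural corepressor, averaged 0.978 ± 0.481 FPKM in knockout and 44.9 ± 2.28 FPKM in wild type, and the neuron markers fell in the same libraries. The histone demethylase gene Kdm4b and the gene Narf fell by 1.53 and 1.60 on the log2 scale.

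Over the 6 libraries, the tested genes whose log2(FPKM + 1) profile, centred on its own mean, lay nearest to that of Ndrg1 were Maff, Plaur and Epas1, at Euclidean distances of 0.27, 0.38 and 0.39. Plaur, the urokinase receptor, was at 55.6, 68.4 and 47.5 FPKM in knockout, against 1.30, 0.657 and 0.808 FPKM in wild type. Maff was at 98.0, 110.04 and 89.6 FPKM in knockout, against 3.16, 2.14 and 2.70 FPKM in wild type. The nearest to Aldoa were Tmem88, Tatdn2 and Smim1, at distances of 0.09, 0.09 and 0.11. Each of these genes was among those with higher values in knockout, and with 6 libraries in 2 groups such nearness describes mainly the size of the difference between the genotypes.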

How the data were processed

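The deposited values were read as FPKM made by the authors. No header gives the unit; it was inferred because Cufflinks is named and the values are fractional. TopHat2 2.0.8 and Cufflinks 2.1.1 are named, with mm9 and mm10 and no role for either, per the submitters' processing notes. FPKM falls in a library that holds a few very abundant transcripts. Read depth was not stated; from the spacing of values under 0.3 FPKM, knockout replicates 2 and 3 had 1.08 and 1.03 times the depth of knockout replicate 1, and wild-type replicates 2 and 3 had 0.93 and 1.06 times that of wild-type replicate 1. Across the genes of the table, which are not independent, log2 values correlated at 0.960 to 0.974 within knockout, 0.988 to 0.991 within wild type and 0.364 to 0.435 between genotypes.

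The labels give groups and replicate numbers. The log2(FPKM + 1) values were compared with limma 3.58.1 in R 4.3.3 (trend and robust on, two-sided, genotype as the only term), for the 6487 genes that reached 1 FPKM in 3 or more of the 6 libraries; 614 were left out, and adjustment ran over the 6487. The test was checked on simulated data in which few genes changed and both groups had the wild-type spread. These data differ from that in both ways, so the check says little about the calls made here. The members, the lists and the tests were chosen with earlier results of these data known. Besides the members, genes were named as the 3 of smallest p in each direction of a list. Genes of the pairs of related genes and the 3 nearest profiles were named too. Also named were the genes of a list that did not pass, some whose call or direction changed under an alternative, and some markers. Others are said to have been named after their values were seen. Alternatives were pseudocounts of 0.1 and 5, other filters, trimmed-mean rescaling (from its definition, unweighted), quantile normalization, limma with trend and robust off, the replicate number as a block, a threshold of 0.01, and each library left out. Quantile normalization gives every library the same distribution, while summed FPKM was 258702 to 304435 in knockout and 170360 to 199529 in wild type. Trimmed-mean rescaling takes the middle of the changes as unchanged. Whether either holds for this table was not tested. Positions of genes are those of GENCODE M21 (GRCm38), and windows around starts from RefSeq on GRCm38.p6. The values came without coordinates. Some genes taken by the rule for named genes are not reported here.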

Additional observations from a re-analysis of the deposited data

How the results depend on the processing

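The count of 10 members called higher was 10 under every alternative but quantile normalization, where Aldoa turned to -0.21 (limma adjusted p = 0.148) and 9 were called higher. With each library left out it was 10 throughout, and 0 were called lower; the log2 change of Ndrg1 then ranged from 4.60 to 4.84 and that of Aldoa from 0.92 to 1.15. The median log2 change of the 10 was 2.15 with a pseudocount of 5, 3.04 after trimmed-mean rescaling, and 2.55 to 2.85 with each library left out. Over all genes, 3191 were called lower, and 1801 where a mean of at least 5 FPKM was asked, which tested 4249 genes. With the replicate number as a block 10 members were called higher. Same-numbered libraries correlated at -0.06, 0.08 and 0.11 in their deviations from the group means, and libraries of unlike number at -0.13 to 0.06. With 3 libraries per genotype these values cannot tell whether the numbers pair the libraries. Outside the members, direction turned for Taldo1 (-0.15) and Hsp90aa1 (-0.60) with quantile normalization, and for Igfbp1 with a pseudocount of 0.1 (-0.98), with wild-type replicate 2 left out (-0.07) and with knockout replicate 3 left out (-1.33, limma adjusted p = 0.00508, then called lower; 0.93 with knockout replicate 2 left out). Without a turn of direction, calls were lost 30 times and gained 6 times over the alternatives of 79 tested genes, none in a member. With quantile normalization Vegfa, Fam162a and Anxa2, other hypoxia targets counted as risen, lost theirs (limma adjusted p = 0.109, 0.122 and 0.175). Hsp90aa1 and Gyg were called higher after trimmed-mean rescaling (limma adjusted p = 0.0409 and 0.0156). The cause of these changes was not tested. Depth in reads limits low genes such as Car9 most, whose difference of means was 0.185 to 0.594 FPKM with each library left out.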

Other observations

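Genes of glycogen handling and of the pentose phosphate branch, which share their sugar phosphates with glycolysis, were described in part by the table. Of 14 genes of gluconeogenesis and glycogen, 4 were in it: Ugp2 and Pygl rose, Pygm fell and Gyg did not pass (log2 change 0.48, limma adjusted p = 0.119). Ugp2, which makes the activated glucose used for glycogen, was at 79.4, 64.8 and 86.8 FPKM in knockout, against 18.7, 21.3 and 21.7 FPKM in wild type (log2 change 1.85, SE 0.16). Pygl, the liver-type glycogen phosphorylase, was at 24.9, 22.2 and 32.0 FPKM in knockout, against 5.43, 4.31 and 5.57 FPKM in wild type (log2 change 2.16, SE 0.18), and Pygm, the muscle type, at 0.382, 0.265 and 0.315 FPKM in knockout, against 4.06, 3.35 and 3.31 FPKM in wild type (-1.79, SE 0.11). Pygm passed the filter through its wild-type values alone.

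Of 7 pentose phosphate genes, 2 were in the table and both rose, where 47.2% of all genes tested were called higher and 49.2% lower. Taldo1 (transaldolase) averaged 256 ± 62.1 FPKM in knockout and 141 ± 15.2 FPKM in wild type, with a log2 change of 0.83, or 0.46 above the median of all genes tested, that turned with quantile normalization (-0.15). Rpia averaged 34.0 ± 6.68 FPKM in knockout and 22.4 ± 2.12 FPKM in wild type (log2 change 0.57, or 0.19 above that median, limma adjusted p = 0.0138), and its call ended without wild-type replicate 2 (0.51, limma adjusted p = 0.0574) and with quantile normalization (0.27, limma adjusted p = 0.126). None of the 16 genes listed for the tricarboxylic acid cycle was in the table, so they were not analysed here.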
